A study of Mus musculus with 9 samples.

Results

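The collagen genes were examined in RNA from cultured cells of embryonic mouse heart ventricle in which Dnmt3a or Dnmt3b, the genes of the DNA methyltransferases that place new methyl groups on cytosine, had been targeted with siRNA. Members were the protein-coding genes with a symbol of the form Col, number, a, number in the GENCODE mouse annotation of GRCm38 whose mean level over the 9 libraries was at least 0.5 CPM (reads of a gene per 1000000 reads in genes). Of 44 annotated collagen genes, all present in the count tables, 39 met this minimum. They comprised 10 of 11 fibrillar collagen genes, 8 of 8 basement membrane collagen genes and 21 of 25 others. The minimum was the only measured value used to choose members, and no difference between groups entered it. Just inside it stood Col28a1 with a mean of 0.581 CPM, Col17a1 with 0.678 CPM and Col10a1 with 0.748 CPM. Just outside it stood Col6a4 with 0.370 CPM, Col19a1 with 0.360 CPM and Col2a1 with 0.329 CPM, followed by Col22a1 with 0.171 CPM and Col25a1 with 0.148 CPM. All 39 members, and Col6a4, Col19a1 and Col2a1 of those under the minimum, also passed the count filter of the test; the values by library given from here on are CPM scaled between libraries by the trimmed mean of M values.

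Ventricles were taken from CD-1 mice, which are outbred, at embryonic day 13.5 and pooled by litter. They had grown for 48 h when they were transfected with 0.012 pmol of siRNA, and 72 h later they were sorted magnetically for VCAM1, a surface protein used to select embryonic heart muscle cells. The DNMT3a siRNA group received a pool of 4 siRNAs against Dnmt3a, the DNMT3b siRNA group a pool of 4 against Dnmt3b, and the negative siRNA group a commercial siRNA sold as a control without a target. Each group had 3 libraries of poly(A) RNA, numbered 1 to 3, and all groups shared strain, stage, culture, transfection reagent and sort. Whether the 3 libraries of a group represent 3 litters, 3 cultures or repeats of 1 is not stated, and p-values therefore describe the spread among these libraries, which may be technical. RNA was taken at 1 time after transfection, and collagen protein was not measured in the files used here.

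Collagens are secreted proteins in which 3 chains wind into a triple helix. Fibrillar collagens such as types I, III, V and XI assemble into the rope-like fibrils that give the heart wall its tensile strength and are made chiefly by fibroblasts. Type IV collagen forms the sheet-like network of basement membranes, which surround heart muscle cells and line vessels, and types XV and XVIII sit beside it. The remaining collagens bind fibril surfaces, form microfibrils or hexagonal networks, or span the cell membrane.

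Reads counted in genes ran from 30756749 to 31175409 in DNMT3a siRNA libraries, from 28284399 to 32628056 in DNMT3b siRNA libraries and from 27852412 to 35896018 in negative siRNA libraries. Dnmt3a had 40.3 to 52.9 CPM in the DNMT3a siRNA libraries, 215 to 235 CPM in the DNMT3b siRNA libraries and 232 to 275 CPM in the negative siRNA libraries. Dnmt3b had 4.69 to 4.87 CPM after DNMT3a siRNA, 1.17 to 2.43 CPM after DNMT3b siRNA and 4.26 to 4.32 CPM after negative siRNA, so each target was lowest in the libraries labelled with its siRNA (log2 fold change -2.48, adjusted p = 3.42e-06, for Dnmt3a and -1.34, adjusted p = 0.00816, for Dnmt3b, edgeR). Vcam1, the sort marker, had 212 to 258 CPM after DNMT3a siRNA, 268 to 306 CPM after DNMT3b siRNA and 276 to 361 CPM after negative siRNA, with no overlap between DNMT3a siRNA and negative siRNA (log2 fold change -0.42, adjusted p = 0.051, edgeR). The share of alignments that were not unique and hence not counted in genes was 36.6% to 40.1% after DNMT3a siRNA, 41.5% to 42.5% after DNMT3b siRNA and 41.3% to 42.5% after negative siRNA; its part in the results was not tested. All 14 cardiomyocyte markers were detected in every library, and so were all 10 fibroblast, 10 smooth muscle and pericyte, 10 endothelial, 10 epicardial and 10 macrophage markers. Detected means a count above 0 here, and the 10 macrophage markers summed to only 7.85 CPM in DNMT3a siRNA library 1. Of 10 cartilage and valve markers, 1 was at 0 in some libraries. The sorted cells labelled cardiomyocytes thus also held some RNA of genes typical of the other cell types.

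All 44 collagen genes together took 5.84% to 6.32% of reads in genes after DNMT3a siRNA, 5.90% to 6.48% after DNMT3b siRNA and 5.86% to 8.14% after negative siRNA, the top of the last range being library 2. On the per-length scale, CPM per kb of exon averaged over 9 libraries, Col1a1 led with 3381, followed by Col1a2 with 838, Col4a1 with 794, Col3a1 with 763 and Col4a2 with 686. Fibrillar genes made up 74.2% of the per-length sum over the 39 members, basement membrane genes 21.1% and the others 4.72%. The first 4 genes alone made up 72.9%. At the other end, Col26a1 had 0.110 CPM per kb.

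**Figure D1:**
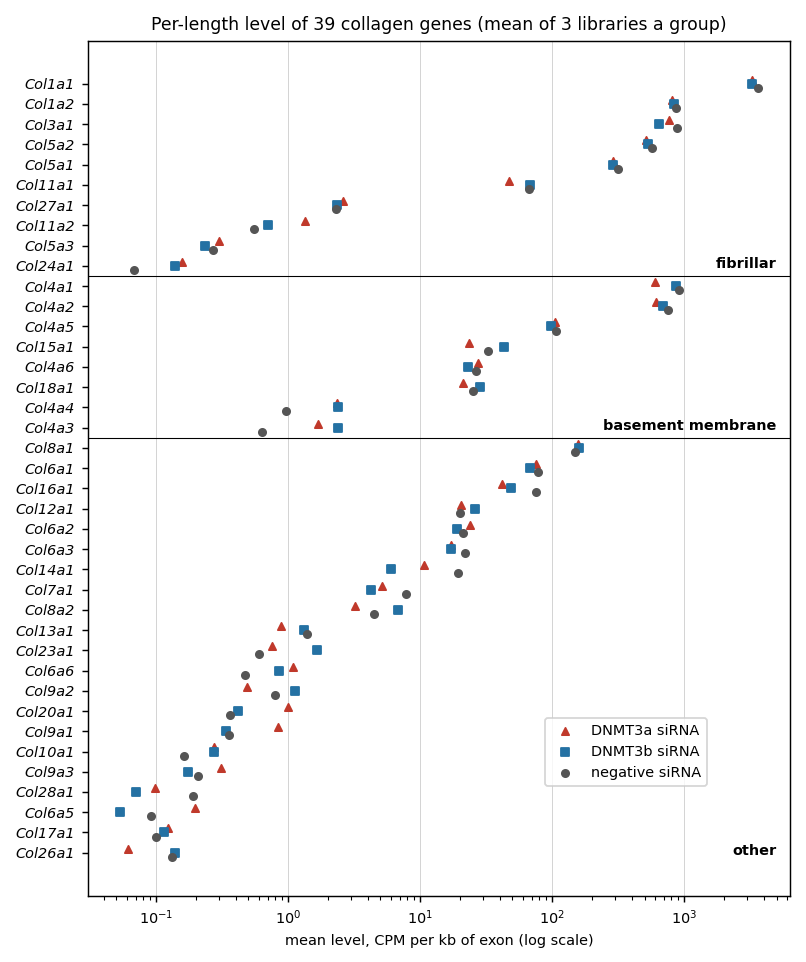
Level of each of the 39 collagen genes as CPM per kb of exon on a log axis, as the mean of the 3 libraries of each siRNA group, arranged by class. Col1a1 stands at the top near 3381 and Col26a1 at the bottom near 0.110, averaged over the 9 libraries, and for most genes the 3 groups lie close together.

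After DNMT3a siRNA, against negative siRNA, few collagen genes differed, and 3 of the 5 called were basement membrane genes. Col4a3 and Col4a4, whose chains form the specialised basement membrane network of kidney and lung, rose 2.63-fold and 2.43-fold, and Col20a1, a fibril-associated collagen gene first described in chick, rose 2.76-fold. Col4a1, which encodes the main chain of the common basement membrane network, was 1.54-fold lower, and Col16a1, another fibril-associated collagen gene, was 1.80-fold lower. In edgeR's quasi-likelihood test with Benjamini-Hochberg adjustment over 16561 genes, 5 of the 39 members were called at an adjusted p under 0.05, which is 12.8%, against 10.1% of all genes tested. The 3 higher members set beside 4.87% of all genes called higher, and the 2 lower members beside 5.22% called lower. The members' share was thus near that of all genes in this test. The median log2 fold change of the 39 members was -0.05, against 0.02 for all genes, with 18 members positive and 21 negative. In the fit with the replicate number as a block, 8 of 39 members were called, against 14.3% of all genes in that fit: the same 5 plus Col11a1 at a log2 fold change of -0.48 (adjusted p = 0.039), Col11a2 at 1.21 (adjusted p = 0.0463) and Col24a1 at 1.20 (adjusted p = 0.0301). With the block Col4a3 stood at 1.39 (adjusted p = 0.000245, edgeR), Col4a4 at 1.28 (adjusted p = 0.000408) and Col20a1 at 1.46 (adjusted p = 0.00291). Col4a1 stood at -0.62 (adjusted p = 0.00717) and Col16a1 at -0.85 (adjusted p = 0.00145).

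After DNMT3b siRNA, against negative siRNA, Col4a3 rose 3.77-fold and Col4a4 rose 2.47-fold, while Col16a1 was 1.54-fold lower. These 3 of 39 members, 7.69%, were the calls of the same test, against 5.64% of all genes. The 2 higher members stand beside 3.52% of all genes called higher, and the 1 lower member beside 2.12% called lower. The median log2 fold change of members was -0.08, against 0.00 for all genes, again with 18 positive and 21 negative. Both comparisons use the same 3 negative siRNA libraries, so the 3 genes called in both are not independent observations of those libraries.

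DNMT3a siRNA was also set directly against DNMT3b siRNA. In that comparison Col20a1 was 2.38-fold higher, and Col4a1 and Col18a1, whose C-terminal fragment is endostatin, were 1.45-fold and 1.34-fold lower. These were 3 of 39 members, 7.69%, against 9.55% of all genes called. The 1 higher member stands beside 4.47% of all genes called higher, and the 2 lower members beside 5.08% called lower. In this test the members' share was near the background. With DESeq2 9 of 39 members were called, against 13.7% of all genes, with the replicate block 10 of 39, against 15.2%, and without all libraries numbered 2 it was 8 of 39, against 9.19%. In each of those fits the members' share was above that of all genes, a difference that was not tested. The count was 0 without DNMT3a siRNA library 1, against 3.19% of all genes, and without DNMT3b siRNA library 2, against 3.11%. The median log2 fold change was 0.01 for members and 0.01 for all genes. The calls of Col20a1, Col4a1 and Col18a1 each rested on single libraries, as given with the genes.

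**Figure D2:**
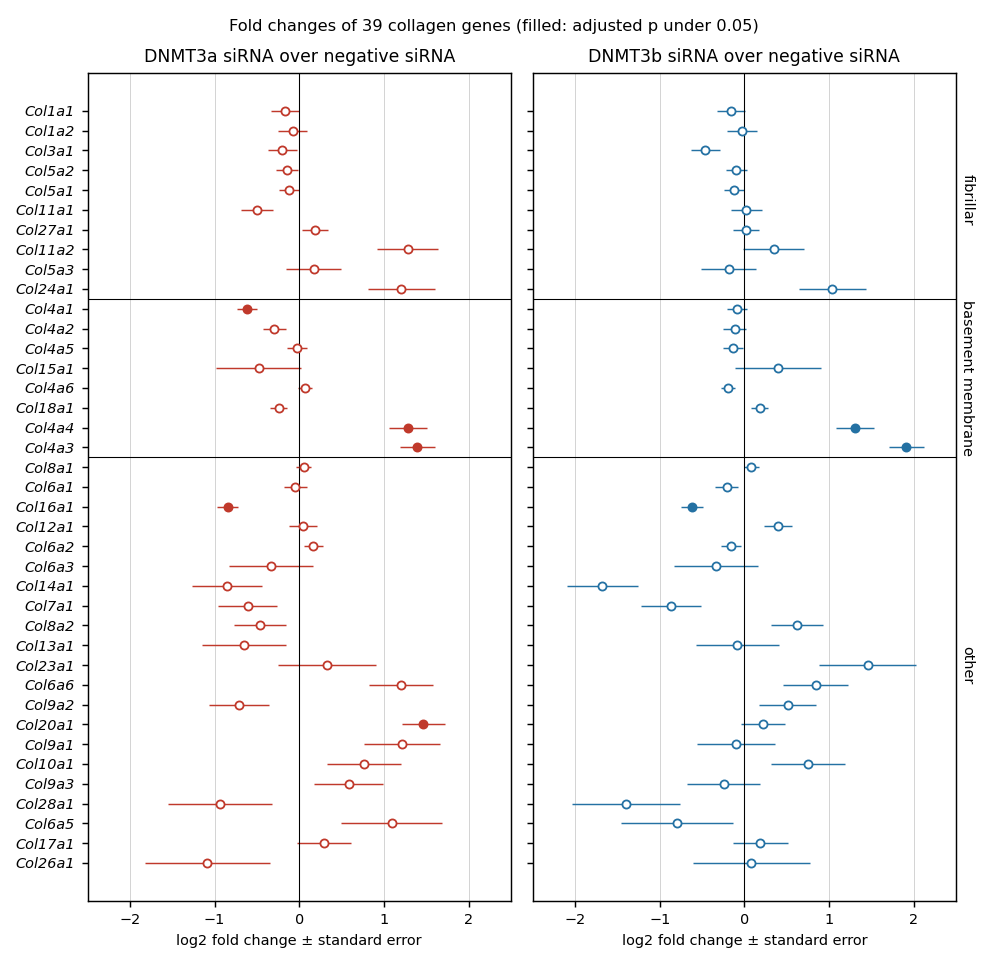
Log2 fold change with its standard error for each of the 39 collagen genes, DNMT3a siRNA over negative siRNA on the left and DNMT3b siRNA over negative siRNA on the right, with filled symbols for an adjusted p under 0.05. Filled symbols mark 5 genes on the left and 3 on the right, and most of the open symbols lie near 0.

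By class, 0 of the 10 fibrillar genes were called in any of the 3 comparisons in the main edgeR fit. That fit used all 9 libraries, the count filter, scaling by the trimmed mean of M values and no block. In it 3, 2 and 2 fibrillar genes had an unadjusted p under 0.05. These counts are after DNMT3a siRNA against negative siRNA, after DNMT3b siRNA against negative siRNA and between DNMT3a siRNA and DNMT3b siRNA. DESeq2 called the fibrillar genes Col11a1 and Col11a2 in the comparisons that involve DNMT3a siRNA and called no fibrillar gene after DNMT3b siRNA against negative siRNA. With the replicate block 3 fibrillar genes, Col11a1, Col11a2 and Col24a1, were called after DNMT3a siRNA against negative siRNA, as many as basement membrane genes, and Col11a1 was called between the knockdowns. Of the 8 basement membrane genes, 3 were called after DNMT3a siRNA and 2 after DNMT3b siRNA against negative siRNA, and 2 between DNMT3a siRNA and DNMT3b siRNA. Of the 21 others, 2, 1 and 1 were called in the same order of comparisons. Among all genes tested, 10.1%, 5.64% and 9.55% were called in that order. Differences between the classes were not tested. The summed level of the 8 basement membrane genes was 8481 to 10554 CPM after DNMT3a siRNA, 11979 to 13085 CPM after DNMT3b siRNA and 11582 to 14217 CPM after negative siRNA. The DNMT3a siRNA libraries lay below both other groups in this sum, of which Col4a1 was the largest term. Fibrillar genes summed to 45498 to 48549 CPM after DNMT3a siRNA, 43449.8 to 50337 CPM after DNMT3b siRNA and 44135 to 66109 CPM after negative siRNA, with overlap of all groups.

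Promoters of the genes called against negative siRNA are shown because the enzymes targeted here methylate cytosine before guanine (CpG) and because Col4a1 with Col4a2 and Col4a4 with Col4a3 each share one. No methylation was measured in these libraries. RefSeq (build GRCm38.p6) gave a promoter, taken as 250 bases before to 50 bases after the transcription start, for 32 of the 39 members and for 4 of the 5 genes called. CpG dinucleotides are in capitals, and each sequence reads 5′ to 3′ along its gene. The Col4a1 window lies at chr8:11312777-11313076 on the minus strand and also holds the start of Col4a2, which runs the other way. The Col4a4 window lies at chr1:82586800-82587099 on the minus strand and also holds the start of Col4a3, which runs the other way with 71 bases between the genes. The Col16a1 window lies at chr4:130047590-130047889 and the Col20a1 window at chr2:180986285-180986584, both on the plus strand.
Col4a1: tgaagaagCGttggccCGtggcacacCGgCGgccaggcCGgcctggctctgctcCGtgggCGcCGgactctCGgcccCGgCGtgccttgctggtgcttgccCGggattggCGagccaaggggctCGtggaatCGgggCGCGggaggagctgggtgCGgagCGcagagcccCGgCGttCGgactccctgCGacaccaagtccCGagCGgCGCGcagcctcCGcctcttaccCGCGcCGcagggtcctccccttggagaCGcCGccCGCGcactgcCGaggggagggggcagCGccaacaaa
Col4a4: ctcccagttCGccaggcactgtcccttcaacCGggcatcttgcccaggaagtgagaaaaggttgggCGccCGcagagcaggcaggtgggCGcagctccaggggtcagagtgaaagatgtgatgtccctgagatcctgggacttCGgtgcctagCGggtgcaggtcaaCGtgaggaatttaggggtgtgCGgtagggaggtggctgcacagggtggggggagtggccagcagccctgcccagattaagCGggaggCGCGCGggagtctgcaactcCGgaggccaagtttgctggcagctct
Col16a1: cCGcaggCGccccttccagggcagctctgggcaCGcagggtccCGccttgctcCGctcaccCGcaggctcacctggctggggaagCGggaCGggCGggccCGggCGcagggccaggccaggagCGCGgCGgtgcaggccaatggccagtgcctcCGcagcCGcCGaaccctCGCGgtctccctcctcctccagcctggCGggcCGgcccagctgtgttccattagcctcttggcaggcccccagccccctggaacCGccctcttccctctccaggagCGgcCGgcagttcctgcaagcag
Col20a1: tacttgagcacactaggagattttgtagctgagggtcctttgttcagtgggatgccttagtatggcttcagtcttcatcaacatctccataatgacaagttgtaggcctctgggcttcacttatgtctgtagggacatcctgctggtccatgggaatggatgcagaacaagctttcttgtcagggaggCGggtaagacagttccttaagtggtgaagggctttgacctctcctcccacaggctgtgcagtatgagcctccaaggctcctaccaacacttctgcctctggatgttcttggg
The Col4a1 window held 37 CpG, the most of any member promoter, the Col16a1 window 24, the Col4a4 window 14 and the Col20a1 window 1. The median was 11 over the 35 promoters of these 32 members, as Col18a1, Col6a2 and Col9a1 have 2 each in the table, and 7 over all 32851 promoters in the table. Searched on both strands, the letters GGGCGG occurred in the Col4a1 and Col16a1 windows and in 21 of the 35 member promoters, against 35.7% of all promoters. The letters CCAAT occurred in the same pair of windows and in 11 of 35, against 37.4% of all, and TATAAA in none of the 4 and in 5 of 35, against 13.6% of all. The genes that fell (Col4a1, Col16a1) and those that rose (Col4a4, Col20a1) after DNMT3a siRNA stood at 37 and 24 CpG and at 14 and 1 CpG, a description of 4 windows and not a test. Promoters of members not called against negative siRNA also spanned this range, with 34 CpG for Col5a1, 33 for Col4a2 and 0 for Col3a1.

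Col4a1 (ENSMUSG00000031502, chr8:11198423-11312826, minus strand) encodes the α1 chain, present in pairs in the common type IV molecule. It had 4662, 3969 and 4734 CPM in DNMT3a siRNA libraries 1 to 3, 6159, 6875 and 6378 CPM in DNMT3b siRNA libraries 1 to 3, and 6057, 7119 and 7398 CPM in negative siRNA libraries 1 to 3. All DNMT3a siRNA libraries lay below all libraries of both other groups, while DNMT3b siRNA and negative siRNA overlapped. The means were 4455 ± 422, 6470.3 ± 367 and 6858 ± 707 CPM (SD, n = 3 each) after DNMT3a, DNMT3b and negative siRNA. Relative to negative siRNA the log2 fold change was -0.62 ± 0.12 (SE, adjusted p = 0.00824, edgeR) after DNMT3a siRNA and -0.08 ± 0.12 (adjusted p = 0.735) after DNMT3b siRNA. Against DNMT3b siRNA, DNMT3a siRNA gave -0.54 ± 0.12 (adjusted p = 0.0188). The call against negative siRNA was kept under all 15 alternative settings, with adjusted p up to 0.0337. The call between both knockdowns was lost without DNMT3a siRNA library 1 (adjusted p = 0.0571), without DNMT3b siRNA library 2 (adjusted p = 0.0925), without DNMT3b siRNA library 3 (adjusted p = 0.0725) and without all libraries numbered 2 (adjusted p = 0.0642).

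Col4a2 (ENSMUSG00000031503, chr8:11312805-11449287, plus strand) encodes the α2 chain that completes the same molecule and overlaps Col4a1 by 22 exonic bases on the other strand. It had 4302, 3299.8 and 4539 CPM in DNMT3a siRNA libraries 1 to 3, 4423, 4839 and 4546 CPM in DNMT3b siRNA libraries and 4377, 5069 and 5485 CPM in negative siRNA libraries. The 3 groups overlapped, and DNMT3a siRNA library 2 was the lowest. The log2 fold change was -0.30 ± 0.14 (adjusted p = 0.203, edgeR) after DNMT3a siRNA and -0.11 ± 0.14 (adjusted p = 0.684) after DNMT3b siRNA against negative siRNA. As the difference between the chains of 1 molecule was noticed after the values were seen, their per-length ratio is given with an exact permutation test that cannot go below p = 0.1 with 3 libraries against 3.

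The per-length level of Col4a1 over that of Col4a2 was 0.961, 1.07 and 0.925 in DNMT3a siRNA libraries 1 to 3, 1.23, 1.26 and 1.24 in DNMT3b siRNA libraries, and 1.23, 1.25 and 1.20 in negative siRNA libraries. Every DNMT3a siRNA library had a lower ratio than every library of the other groups, and DNMT3b siRNA overlapped with negative siRNA. The mean ratio was 0.984 ± 0.0737 after DNMT3a siRNA, against 1.22 ± 0.0248 after negative siRNA (SD, n = 3 each; two-sided exact permutation p = 0.1, 0.3 after Benjamini-Hochberg adjustment over 30 ratio tests). After DNMT3b siRNA it was 1.25 ± 0.0127 (exact permutation p = 0.3 against negative siRNA, n = 3 each). In the same libraries the ratio of Col1a1 over Col1a2, the chains of type I collagen, was 3.99 ± 0.375 after DNMT3a siRNA, 3.89 ± 0.133 after DNMT3b siRNA and 4.26 ± 0.170 after negative siRNA. Col6a1 over Col6a2, chains of type VI collagen, was 3.20 ± 0.141 after DNMT3a siRNA, 3.58 ± 0.117 after DNMT3b siRNA and 3.74 ± 0.293 after negative siRNA. Here too the DNMT3a siRNA libraries (3.04 to 3.30) lay below all DNMT3b siRNA libraries (3.51 to 3.72) and all negative siRNA libraries (3.41 to 3.97), with the same exact permutation p = 0.1 against either group (n = 3 each), so the separation was not particular to the type IV pair. None of the 30 ratio tests could pass a threshold of 0.05.

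**Figure D3:**
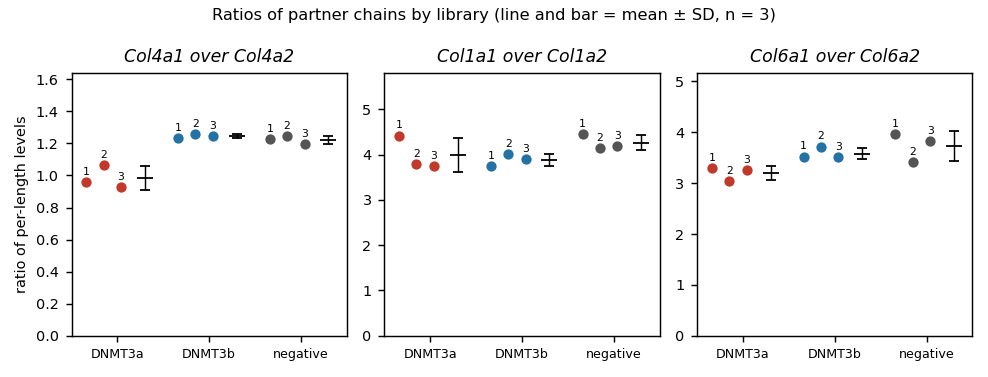
Per-length ratios of paired chains in each library, with points for libraries and bars for the mean ± SD of 3 libraries: Col4a1 over Col4a2, Col1a1 over Col1a2 and Col6a1 over Col6a2. For Col4a1 over Col4a2 the DNMT3a siRNA libraries sit between 0.925 and 1.07, below the DNMT3b siRNA libraries (1.23 to 1.26) and the negative siRNA libraries (1.20 to 1.25).

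Col4a3 (ENSMUSG00000079465, chr1:82586921-82722059, plus strand) encodes the α3 chain, which joins α4 and α5 in the basement membrane of the kidney filter. It had 21.6, 12.9 and 15.5 CPM in DNMT3a siRNA libraries 1 to 3, 24.8, 22.5 and 24.4 CPM in DNMT3b siRNA libraries and 8.05, 5.91 and 4.95 CPM in negative siRNA libraries. Every library of either knockdown lay above every negative siRNA library, and the DNMT3b siRNA libraries lay above the DNMT3a siRNA libraries. Log2 fold changes were 1.40 ± 0.21 (adjusted p = 0.0027, edgeR) after DNMT3a siRNA and 1.92 ± 0.21 (adjusted p = 0.000802) after DNMT3b siRNA against negative siRNA. DNMT3a siRNA against DNMT3b siRNA gave -0.52 ± 0.20 (adjusted p = 0.134), which did not pass the test. Both calls against negative siRNA held under all 15 alternatives, with adjusted p up to 0.012 after DNMT3a siRNA and 0.00653 after DNMT3b siRNA.

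Col4a4 (ENSMUSG00000067158, chr1:82448423-82586849, minus strand) encodes the α4 chain of the same molecule and shares the promoter region printed above with Col4a3. Its level was 30.8, 17.4 and 26.2 CPM in DNMT3a siRNA libraries 1 to 3, 25.7, 23.9 and 26.1 CPM in DNMT3b siRNA libraries and 13.3, 8.35 and 8.87 CPM in negative siRNA libraries. Each knockdown library lay above each negative siRNA library, and the knockdown groups overlapped. The log2 fold change was 1.28 ± 0.22 (adjusted p = 0.00645, edgeR) after DNMT3a siRNA and 1.31 ± 0.22 (adjusted p = 0.00874) after DNMT3b siRNA against negative siRNA. Both calls held under all 15 alternatives, with adjusted p up to 0.0328 and 0.0498. Library 2 was the lowest of its group for Col4a4 after DNMT3a siRNA, after DNMT3b siRNA and after negative siRNA. On the per-length scale both genes remained minor among type IV genes, with a mean over 9 libraries of 1.57 CPM per kb for Col4a3 and 1.89 CPM per kb for Col4a4, against 794 for Col4a1.

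The partners of these chains are encoded on chromosome X, where Col4a5 (chr X:141475385-141689234, plus strand) and Col4a6 (chr X:141165403-141474076, minus strand) also lie back to back, 1308 bases apart. Col4a5, the α5 chain, had 748, 589 and 777 CPM in DNMT3a siRNA libraries 1 to 3, 706, 645 and 617 CPM in DNMT3b siRNA libraries and 668, 704 and 783 CPM in negative siRNA libraries. These overlapped, with log2 fold changes of -0.03 ± 0.12 (adjusted p = 0.922, edgeR) after DNMT3a siRNA and -0.13 ± 0.12 (adjusted p = 0.56) after DNMT3b siRNA. Col4a6, the α6 chain, ran from 209 to 229.7 CPM after DNMT3a siRNA, from 172 to 200.5 CPM after DNMT3b siRNA and from 199 to 227 CPM after negative siRNA. It was not called in any comparison, although the DNMT3a siRNA libraries lay above the DNMT3b siRNA libraries (log2 fold change 0.26 ± 0.09, adjusted p = 0.0898). Among the 3 head-to-head type IV pairs, both genes of the chromosome 1 pair rose after each knockdown against negative siRNA, Col4a1 of the chromosome 8 pair fell after DNMT3a siRNA, and neither gene of the chromosome X pair was called. Differences between the pairs were not tested.

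Types XV and XVIII are basement membrane collagens that carry long sugar chains. Col18a1 (chr10:77052178-77166548, minus strand) had 159, 144 and 142 CPM in DNMT3a siRNA libraries 1 to 3, 201, 202 and 194 CPM in DNMT3b siRNA libraries and 151, 201 and 175 CPM in negative siRNA libraries. The DNMT3a siRNA libraries lay below the DNMT3b siRNA libraries, and negative siRNA overlapped with both. Its log2 fold change was -0.43 ± 0.10 (adjusted p = 0.0267, edgeR) between DNMT3a siRNA and DNMT3b siRNA, -0.24 ± 0.10 (adjusted p = 0.162) after DNMT3a siRNA against negative siRNA and 0.18 ± 0.10 (adjusted p = 0.338) after DNMT3b siRNA against negative siRNA. The 1 call was lost whenever any 1 of the 6 knockdown libraries was left out: adjusted p was 0.0547, 0.0546 and 0.0946 without DNMT3a siRNA library 1, 2 and 3, and 0.0678, 0.101 and 0.0786 without DNMT3b siRNA library 1, 2 and 3. It was also lost without all libraries numbered 2 (adjusted p = 0.0528). Col15a1 (chr4:47208161-47313167, plus strand) had 119, 239 and 90.9 CPM in DNMT3a siRNA libraries 1 to 3, 239, 298 and 289 CPM in DNMT3b siRNA libraries and 108, 359.9 and 158 CPM in negative siRNA libraries. Its coefficient of variation was 52.7%, 11.5% and 63.8% in that order of groups. Library 2 was the highest of all 3 groups for this gene, and no comparison passed the test with all 9 libraries (adjusted p = 0.328 to 0.704). Without all libraries numbered 2, edgeR called it after DNMT3b siRNA against negative siRNA (log2 fold change 0.99, adjusted p = 0.0406). It was then also called between DNMT3a siRNA and DNMT3b siRNA (-1.33, adjusted p = 0.0157).

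**Figure D4:**
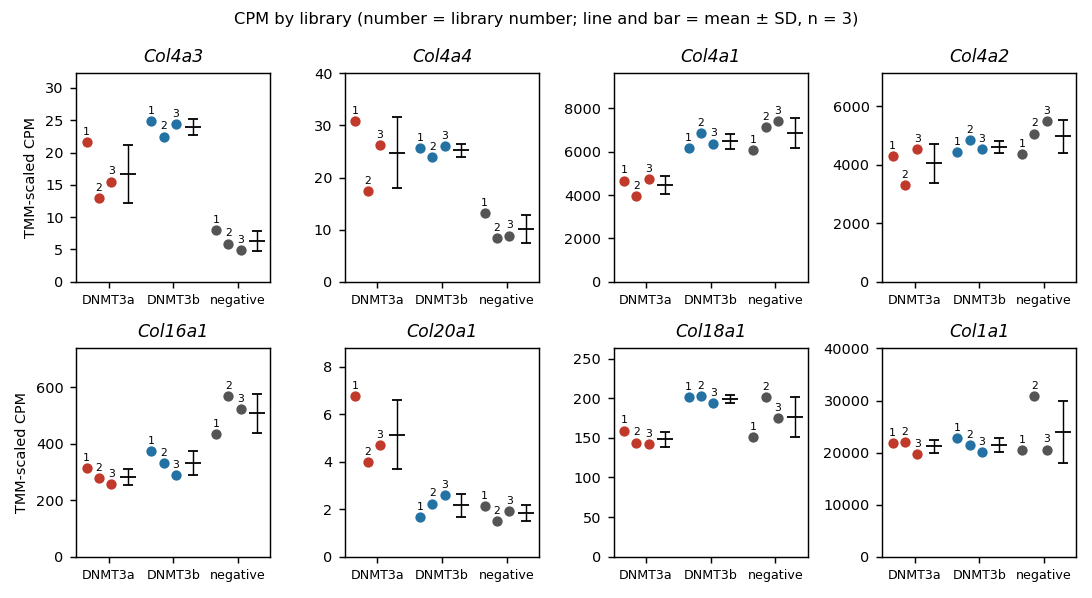
CPM in each of the 9 libraries for collagen genes named in the text, with numbered points for libraries 1 to 3 and a bar for the mean of each group. Col4a3 and Col4a4 show knockdown libraries of both kinds above the negative siRNA libraries, and Col4a1 shows the DNMT3a siRNA libraries between 3969 and 4734 CPM, below both other groups.

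The fibrillar genes carried most of the collagen RNA and gave no call in the main edgeR fit. Other edgeR settings without the block called some against negative siRNA after DNMT3a siRNA. Col11a2 was called with library size alone (adjusted p = 0.0365), without DNMT3a siRNA library 2 (adjusted p = 0.00532) and without all libraries numbered 2 (adjusted p = 0.0218). Col24a1 was called with no filter (adjusted p = 0.0406) and Col11a1 without negative siRNA library 3 (adjusted p = 0.0282). Between the knockdowns such settings also called Col11a1 and Col11a2. Col1a1 (chr11:94936224-94953042, plus strand), the α1 chain of type I collagen, had 21825, 22085 and 19737 CPM in DNMT3a siRNA libraries 1 to 3, 22779, 21405 and 20087 CPM in DNMT3b siRNA libraries and 20436, 30812 and 20556 CPM in negative siRNA libraries. Negative siRNA library 2 stood well above the other 8 libraries, which lay between 19737 and 22779 CPM. The log2 fold change was -0.17 ± 0.17 (adjusted p = 0.579, edgeR) after DNMT3a siRNA and -0.16 ± 0.17 (adjusted p = 0.624) after DNMT3b siRNA against negative siRNA. Without negative siRNA library 2, the values became 0.05 after DNMT3a siRNA and 0.06 after DNMT3b siRNA, so the sign of these uncalled differences was set by 1 library.

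Col1a2 (chr6:4504814-4541544, plus strand), the α2 chain of type I collagen, had 9349.6, 11026 and 9968 CPM in DNMT3a siRNA libraries 1 to 3, 11499, 10092 and 9765 CPM in DNMT3b siRNA libraries and 8678, 14067 and 9301 CPM in negative siRNA libraries. Again the groups overlapped and negative siRNA library 2 was the highest; the log2 fold changes were -0.08 ± 0.17 (adjusted p = 0.838, edgeR) after DNMT3a siRNA and -0.03 ± 0.17 (adjusted p = 0.942) after DNMT3b siRNA. Without negative siRNA library 2 they were 0.17 after DNMT3a siRNA and 0.22 after DNMT3b siRNA. Col3a1 (chr1:45311538-45349706, plus strand), whose homotrimer mixes with type I in elastic tissue, had 6821, 7975 and 7812 CPM in DNMT3a siRNA libraries 1 to 3, 7601, 5918 and 5349 CPM in DNMT3b siRNA libraries and 6984, 10714 and 8249 CPM in negative siRNA libraries. DNMT3b siRNA libraries 2 and 3 were the lowest of the 9, but the log2 fold change of -0.46 ± 0.17 against negative siRNA did not pass the test (adjusted p = 0.156), nor did the -0.20 ± 0.17 after DNMT3a siRNA (adjusted p = 0.543).

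Col5a1 and Col5a2, chains of the type V collagen that limits fibril width, ran over the 9 libraries from 2218 to 2950.4 CPM and from 4470.5 to 6430.0 CPM with log2 fold changes between -0.15 and -0.09 against negative siRNA. The type XI genes, whose products start fibrils in cartilage, differed from each other. Col11a1 had 646, 663 and 496 CPM in DNMT3a siRNA libraries 1 to 3, 821, 897 and 871 CPM in DNMT3b siRNA libraries and 831, 1099 and 615 CPM in negative siRNA libraries. The DNMT3a siRNA libraries lay below the DNMT3b siRNA libraries, with a log2 fold change of -0.52 ± 0.19 that did not pass the test (adjusted p = 0.115, edgeR). Col11a2, at a far lower per-length level of 0.862 CPM per kb against 60.5 CPM per kb for Col11a1, had 14.9, 4.75 and 7.94 CPM in DNMT3a siRNA libraries 1 to 3, 4.64, 5.21 and 4.55 CPM in DNMT3b siRNA libraries and 3.68, 3.02 and 4.66 CPM in negative siRNA libraries. All DNMT3a siRNA libraries lay above the negative siRNA libraries, and the log2 fold change of 1.28 ± 0.36 stood at the threshold (adjusted p = 0.051). The remaining fibrillar genes kept were Col27a1, Col5a3 and Col24a1, at 2.42, 0.268 and 0.121 CPM per kb, with Col24a1 higher in every DNMT3a siRNA library than in every negative siRNA library (log2 fold change 1.20 ± 0.39, adjusted p = 0.0817).

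Col16a1 (ENSMUSG00000040690, chr4:130047840-130099283, plus strand) encodes a collagen that lies on the surface of fibrils and microfibrils. It had 313, 278 and 256 CPM in DNMT3a siRNA libraries 1 to 3, 373, 330.04 and 288 CPM in DNMT3b siRNA libraries and 433, 567 and 523 CPM in negative siRNA libraries. Every knockdown library lay below every negative siRNA library, and the knockdown groups overlapped. The log2 fold change was -0.85 ± 0.13 (adjusted p = 0.00253, edgeR) after DNMT3a siRNA and -0.62 ± 0.13 (adjusted p = 0.0171) after DNMT3b siRNA against negative siRNA, and -0.23 ± 0.13 (adjusted p = 0.292) between DNMT3a siRNA and DNMT3b siRNA. The call after DNMT3a siRNA held under all 15 alternatives with adjusted p up to 0.0278. The call after DNMT3b siRNA was lost without negative siRNA library 3 (adjusted p = 0.0631), without DNMT3b siRNA library 2 (adjusted p = 0.0766) and without DNMT3b siRNA library 3 (adjusted p = 0.0922). It was also lost without all libraries numbered 2 (adjusted p = 0.0863).

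Col20a1 (ENSMUSG00000016356, chr2:180986535-181018363, plus strand) belongs by sequence to the same fibril-associated family. Its level was 6.75, 3.97 and 4.71 CPM in DNMT3a siRNA libraries 1 to 3, 1.66, 2.23 and 2.59 CPM in DNMT3b siRNA libraries and 2.14, 1.49 and 1.92 CPM in negative siRNA libraries. The DNMT3a siRNA libraries lay above all 6 others, and the DNMT3b siRNA libraries overlapped with negative siRNA. The log2 fold change was 1.47 ± 0.25 (adjusted p = 0.00521, edgeR) after DNMT3a siRNA against negative siRNA, and the call held under all 15 alternatives with adjusted p up to 0.0219. After DNMT3b siRNA against negative siRNA it was 0.21 ± 0.26 (adjusted p = 0.684). Between DNMT3a siRNA and DNMT3b siRNA it was 1.25 ± 0.25 (adjusted p = 0.0127), a call lost without DNMT3a siRNA library 1 (adjusted p = 0.0579) and without DNMT3b siRNA library 2 (adjusted p = 0.0555). The gene rests on 46 to 208 reads per library and shares 79 exonic bases, 1.54% of its exons, with another gene on the same strand, BX649560.1, whose log2 fold change after DNMT3a siRNA was 0.55 (adjusted p = 0.057).

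Other fibril-associated genes were not called in the main edgeR fit. Col14a1, whose product binds type I fibrils, had 97.1, 36.2 and 90.8 CPM in DNMT3a siRNA libraries 1 to 3, 52.6, 37.8 and 35.8 CPM in DNMT3b siRNA libraries and 104, 105 and 196 CPM in negative siRNA libraries. All knockdown libraries lay below all negative siRNA libraries, yet the log2 fold changes of -0.85 ± 0.41 after DNMT3a siRNA (adjusted p = 0.254, edgeR) and -1.68 ± 0.42 after DNMT3b siRNA (adjusted p = 0.0653) did not pass the test. Col12a1, a relative that also binds fibrils, ran from 280.2 to 339 CPM after DNMT3a siRNA, from 361 to 421 CPM after DNMT3b siRNA and from 224 to 379 CPM after negative siRNA. The 3 type IX genes, Col9a1, Col9a2 and Col9a3, known from cartilage, had 0.509, 0.805 and 0.231 CPM per kb on average. Col9a2 was lower in every DNMT3a siRNA library than in every DNMT3b siRNA library, with a log2 fold change of -1.22 ± 0.35 that did not pass (adjusted p = 0.0541). DESeq2 called Col14a1 after DNMT3b siRNA against negative siRNA (log2 fold change -1.69, adjusted p = 0.00204), Col9a1 after DNMT3a siRNA against negative siRNA (1.20, adjusted p = 0.0453), and Col9a1 (1.31, adjusted p = 0.0258) and Col9a2 (-1.23, adjusted p = 0.0101) between the knockdowns. Col9a2 was also called there by edgeR with the replicate block (adjusted p = 0.00477) and with no filter (log2 fold change -1.21, adjusted p = 0.00766). Col12a1 was called after DNMT3b siRNA without negative siRNA library 2 (log2 fold change 0.59, adjusted p = 0.024).

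No network-forming or beaded collagen gene was called in the main edgeR fit. DESeq2 called Col6a6 after DNMT3a siRNA against negative siRNA (log2 fold change 1.19, adjusted p = 0.00735), and Col8a2 (-1.09, adjusted p = 0.00165) and Col6a5 (1.88, adjusted p = 0.0231) between the knockdowns. The replicate block also called Col8a2 (adjusted p = 0.026) and Col6a5 (adjusted p = 0.0135) between the knockdowns. Col8a1 (chr16:57624258-57754737, minus strand), a short-chain collagen of vessel walls, had 1272, 1138 and 1244 CPM in DNMT3a siRNA libraries 1 to 3, 1186, 1317 and 1222 CPM in DNMT3b siRNA libraries and 1170.0, 1253 and 1100.4 CPM in negative siRNA libraries. The groups overlapped, with log2 fold changes of 0.05 ± 0.09 (adjusted p = 0.784, edgeR) after DNMT3a siRNA and 0.08 ± 0.09 (adjusted p = 0.662) after DNMT3b siRNA against negative siRNA. Its partner Col8a2 was lower in each DNMT3a siRNA library (10.7 to 19.8 CPM) than in each DNMT3b siRNA library (25.3 to 33.9 CPM), with negative siRNA libraries from 14.7 to 29.4 CPM, but the difference did not pass (log2 fold change -1.08 ± 0.31, adjusted p = 0.0642). Col6a1 (chr10:76708792-76726168, minus strand), a chain of the microfibrillar type VI collagen, had 387, 266 and 344 CPM in DNMT3a siRNA libraries 1 to 3, 258, 330.4 and 303 CPM in DNMT3b siRNA libraries and 376, 331 and 325 CPM in negative siRNA libraries. These values overlapped, with log2 fold changes of -0.05 ± 0.14 (adjusted p = 0.881) after DNMT3a siRNA and -0.21 ± 0.14 (adjusted p = 0.415) after DNMT3b siRNA. Col6a2 and Col6a3, the other classical type VI chains, and Col6a5 and Col6a6 were not called by that edgeR fit in any comparison; nor were Col7a1 of anchoring fibrils, Col10a1, the transmembrane genes Col13a1, Col17a1 and Col23a1, or Col26a1 and Col28a1. The replicate block called Col23a1 after DNMT3b siRNA against negative siRNA (log2 fold change 1.66, adjusted p = 0.0149), and Col23a1 (-1.35, adjusted p = 0.0252) and Col26a1 (-1.42, adjusted p = 0.0407) between the knockdowns. Without DNMT3a siRNA library 2, Col6a2 was called between the knockdowns (0.43, adjusted p = 0.029). It was also called there by edgeR with no filter (0.33, adjusted p = 0.0398) and without all libraries numbered 2 (0.48, adjusted p = 0.034).

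Of the 39 members, 6 had all DNMT3a siRNA libraries above and 3 had all below the negative siRNA libraries, against 14.1% and 12.6% of all genes tested. After DNMT3b siRNA 3 lay above and 3 below, against 13.8% and 12.3% of all genes. Between DNMT3a siRNA and DNMT3b siRNA 3 lay above and 8 below, against 16.2% and 16.1% of all genes. The members' log2 fold changes ran from -1.09 to 1.47 after DNMT3a siRNA against negative siRNA, from -1.68 to 1.92 after DNMT3b siRNA against negative siRNA and from -1.22 to 1.89 between DNMT3a siRNA and DNMT3b siRNA. The wide ends of the last range belonged to low-level genes, Col6a5 at the top and Col9a2 at the bottom.

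Collagen genes also varied between libraries of one group. The median within-group coefficient of variation was 21.8% over the members and 11.6% over all genes tested. Ranked by the median over the 3 groups, Col8a1, Col1a1 and Col18a1 were the steadiest members, at 5.79%, 6.28% and 6.45%. Within the negative siRNA group, however, Col1a1 stood at 24.9% and Col18a1 at 14.4%, against 6.49% for Col8a1. Much of the spread ran with library number 2: Col26a1, Col6a5, Col23a1, Col13a1, Col15a1 and Col6a3 were 2.02 to 4.16 times as high in library 2 as in the mean of libraries 1 and 3 within the DNMT3a siRNA and negative siRNA groups, and 1.04 to 1.43 times as high within the DNMT3b siRNA group. Col28a1, Col9a1 and Col14a1 ran the other way, at 0.206 to 0.701 of the mean of libraries 1 and 3 in the DNMT3a siRNA and negative siRNA groups. Within the DNMT3b siRNA group they stood at 2.00, 1.16 and 0.856 of that mean. What sets library 2 apart was not tested; leaving out all 3 such libraries gave 6 called members after DNMT3a siRNA, against 7.82% of all genes, and 6 after DNMT3b siRNA, against 7.3% of all genes, in the comparisons with negative siRNA, where the 9 libraries gave 5 and 3. The additions after DNMT3b siRNA were Col15a1 at a log2 fold change of 0.99 (adjusted p = 0.0406, edgeR), Col23a1 at 2.20 (adjusted p = 0.00308), Col14a1 at -1.76 (adjusted p = 0.041) and Col28a1 at -2.25 (adjusted p = 0.0315), while Col16a1 was lost (adjusted p = 0.0863).

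**Figure D5:**
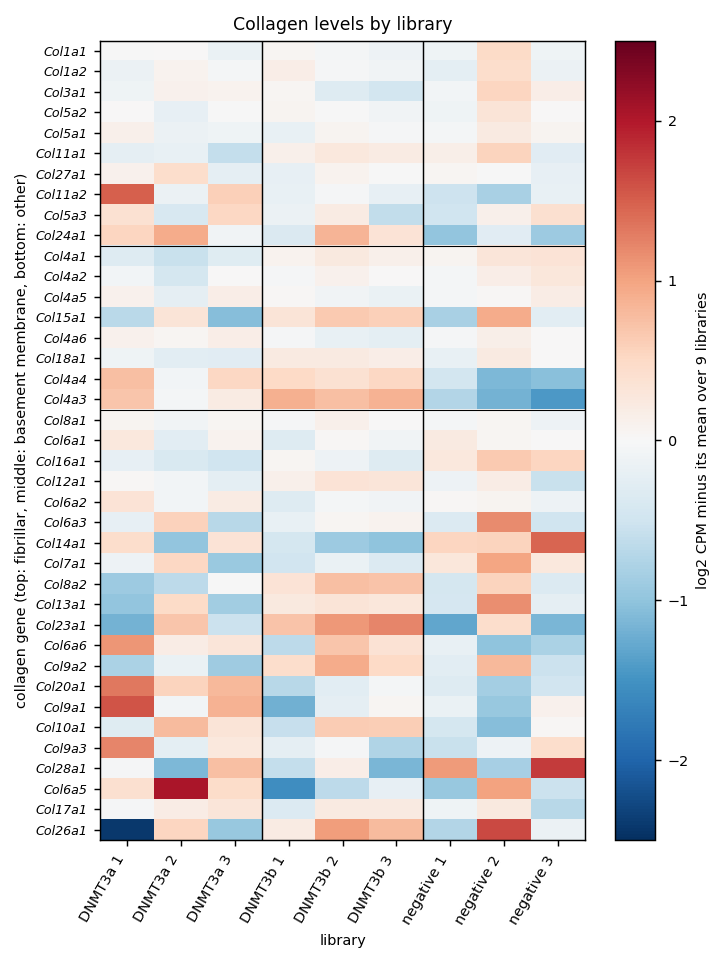
Log2 CPM of each of the 39 collagen genes in each of the 9 libraries, minus the mean of that gene over the 9 libraries, with libraries grouped as DNMT3a siRNA, DNMT3b siRNA and negative siRNA. Col4a3 and Col4a4 are lowest in the 3 negative siRNA columns, and Col26a1, Col6a5 and Col23a1 are high in the columns of library 2 of the DNMT3a siRNA and negative siRNA groups.

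Genes that act on collagen outside the family were read from 5 lists. Their counts stand beside 4.87% of all genes tested called higher and 5.22% called lower after DNMT3a siRNA against negative siRNA. The shares after DNMT3b siRNA were 3.52% and 2.12%. Of 20 genes for folding and modifying the chains inside the cell, 0 were called after DNMT3a siRNA against negative siRNA by edgeR, where 2 had an unadjusted p under 0.05 and DESeq2 called 1. After DNMT3b siRNA 1 of the 20 was called: Serpinh1, the collagen chaperone HSP47, had 2229, 2497 and 2232 CPM in DNMT3a siRNA libraries 1 to 3, 1862, 1786 and 1816 CPM in DNMT3b siRNA libraries and 2279.6, 2999 and 2359 CPM in negative siRNA libraries. The DNMT3b siRNA libraries lay below all others, with a log2 fold change of -0.48 ± 0.12 (adjusted p = 0.0357, edgeR) against negative siRNA. The call was kept in 9 of 15 alternatives. It was lost without negative siRNA library 3, DNMT3a siRNA library 1 or any 1 DNMT3b siRNA library, and without all libraries numbered 2 (adjusted p up to 0.145). The folding genes called after DNMT3b siRNA became 3 higher and 1 lower without negative siRNA library 2. They became 2 higher and 0 lower without all libraries numbered 2. Of 13 measured genes for procollagen cleavage and crosslinking, 2 were lower after DNMT3a siRNA and 0 were called after DNMT3b siRNA against negative siRNA, where 2 had an unadjusted p under 0.05 and DESeq2 called 0. The pair were Adamts14, a protease that removes the N-terminal propeptide, at -0.79 ± 0.15 (adjusted p = 0.00919), and Bmp1, which removes the C-terminal propeptide, at -0.49 ± 0.11 (adjusted p = 0.0189). Adamts14 kept its call in 14 of 15 alternatives; that of Bmp1 was lost without negative siRNA library 3, DNMT3a siRNA library 1 or DNMT3a siRNA library 3 (adjusted p up to 0.0764).

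Of 8 collagen receptors, 2 were higher after DNMT3a siRNA against negative siRNA and 1 was lower after DNMT3b siRNA. Itga1, the α1 integrin chain that binds type IV collagen, rose by 0.36 ± 0.09 on the log2 scale (adjusted p = 0.0246, edgeR) and Ddr1, a receptor kinase for collagen, by 0.45 ± 0.12 (adjusted p = 0.0366) after DNMT3a siRNA. Ddr2, its relative for fibrillar collagen, had a log2 fold change of -0.41 ± 0.10 (adjusted p = 0.0313) after DNMT3b siRNA. These receptor calls were weak: among 15 alternatives Itga1 kept its call in 9, Ddr1 in 7 and Ddr2 in 10. Itga1 lost it without any 1 DNMT3a siRNA library, without negative siRNA library 1 or 3 or without DNMT3b siRNA library 3 (adjusted p up to 0.0836). Ddr1 lost it without any 1 library other than DNMT3a siRNA library 2 (adjusted p up to 0.133), and Ddr2 without negative siRNA library 1 or 3, DNMT3a siRNA library 1 or DNMT3b siRNA library 2 or 3 (adjusted p up to 0.144). Set against DNMT3b siRNA, Itga1 was higher after DNMT3a siRNA by 0.46 ± 0.09 (adjusted p = 0.00961), a call kept in all 15 alternatives.

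Of 13 measured proteases and inhibitors of collagen breakdown, 1 was higher and 3 were lower after DNMT3a siRNA against negative siRNA, and the same counts held after DNMT3b siRNA, where the 4 calls became 7 without negative siRNA library 2 and 2 without DNMT3b siRNA library 3. Mmp15, a membrane-bound metalloprotease, had 45.6, 57.1 and 46.6 CPM in DNMT3a siRNA libraries 1 to 3, 37.9, 43.6 and 52.3 CPM in DNMT3b siRNA libraries and 11.2, 20.9 and 13.6 CPM in negative siRNA libraries. All knockdown libraries lay above all negative siRNA libraries, with log2 fold changes of 1.71 ± 0.22 (adjusted p = 0.00176, edgeR) after DNMT3a siRNA and 1.55 ± 0.22 (adjusted p = 0.00432) after DNMT3b siRNA, kept in all 15 alternatives. Mmp3, stromelysin, had 1.01 to 1.33 CPM after DNMT3a siRNA, 1.87 to 2.26 CPM after DNMT3b siRNA and 3.87 to 4.65 CPM after negative siRNA, without overlap. Its log2 fold change was -1.86 ± 0.19 (adjusted p = 0.000331) after DNMT3a siRNA and -1.02 ± 0.19 (adjusted p = 0.0098) after DNMT3b siRNA, the second of which was lost without DNMT3b siRNA library 3 (adjusted p = 0.0501). The metalloprotease inhibitors differed between the knockdowns. Timp2 had 1131, 920.03 and 1019 CPM in DNMT3a siRNA libraries 1 to 3, 1646, 1506 and 1411 CPM in DNMT3b siRNA libraries and 2202, 1541 and 2278 CPM in negative siRNA libraries, with a log2 fold change of -0.97 ± 0.15 (adjusted p = 0.00267) after DNMT3a siRNA that held in all 15 alternatives and -0.40 ± 0.15 (adjusted p = 0.143) after DNMT3b siRNA. Timp3, which is held in the matrix, had 1425, 1775 and 1511 CPM in DNMT3a siRNA libraries 1 to 3, 1207, 1071 and 1035.5 CPM in DNMT3b siRNA libraries and 2109, 1905.5 and 1867 CPM in negative siRNA libraries. It fell after DNMT3b siRNA (log2 fold change -0.83 ± 0.11, adjusted p = 0.002, kept in all 15 alternatives), and its value of -0.32 ± 0.11 after DNMT3a siRNA did not pass (adjusted p = 0.0949). The other lower calls were less stable. Mmp8, a neutrophil collagenase, had 0 to 0.0908 CPM after DNMT3a siRNA, against 0.260 to 0.362 CPM after negative siRNA (adjusted p = 0.0299), and was called in 9 of 15 alternatives, losing the call with DESeq2, without negative siRNA library 1 or 3, without DNMT3a siRNA library 1 or 3 and without DNMT3b siRNA library 2 (adjusted p up to 0.0967). Mmp11, stromelysin-3, was lower after DNMT3b siRNA (log2 fold change -0.61, adjusted p = 0.0391) and was called in 7 of 15, losing the call with library size alone, without negative siRNA library 2 or 3, DNMT3a siRNA library 3 or any 1 DNMT3b siRNA library, and without all libraries numbered 2 (adjusted p up to 0.131). Between DNMT3a siRNA and DNMT3b siRNA the log2 fold change was -0.57 ± 0.15 (adjusted p = 0.0358, edgeR) for Timp2, a call lost without any 1 of the 6 knockdown libraries (adjusted p up to 0.11). It was 0.51 ± 0.11 (adjusted p = 0.0173) for Timp3, lost without DNMT3b siRNA library 2 or 3 and without all libraries numbered 2 (adjusted p up to 0.0926).

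Of 14 laminin, nidogen and proteoglycan genes that build the basement membrane beside type IV collagen, 1 was lower in each comparison with negative siRNA. Nid1, nidogen, which links laminin to type IV collagen, had 898, 683 and 747 CPM in DNMT3a siRNA libraries 1 to 3, 889, 876 and 862 CPM in DNMT3b siRNA libraries and 1002, 1015 and 985 CPM in negative siRNA libraries. Its log2 fold change of -0.37 ± 0.10 after DNMT3a siRNA (adjusted p = 0.045) was kept in only 5 of 15 alternatives and was lost without any 1 library other than DNMT3a siRNA library 1 (adjusted p up to 0.177). Lama1 was lower after DNMT3b siRNA (log2 fold change -1.10 ± 0.27, adjusted p = 0.0382) in 9 of 15 alternatives and lost the call without negative siRNA library 1 or 2 or any 1 DNMT3b siRNA library (adjusted p up to 0.165). With the replicate number as a block, the counts after DNMT3a siRNA against negative siRNA moved to 1 folding gene lower, and to 2 cleavage genes higher and 2 lower.

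Marker genes of several cell types differed between the same groups. For scale, 4.87% of all genes tested were called higher and 5.22% lower after DNMT3a siRNA against negative siRNA. After DNMT3b siRNA these shares were 3.52% and 2.12%. Of 14 cardiomyocyte markers, 12 were higher after DNMT3a siRNA and 13 after DNMT3b siRNA against negative siRNA, with 0 lower, and their summed level was 5351 to 7075 CPM after DNMT3a siRNA, 6794 to 8173 CPM after DNMT3b siRNA and 2394 to 3050.1 CPM after negative siRNA. Of 10 fibroblast markers, 4 were lower and 0 higher after each knockdown, with sums of 1387 to 1540.3 CPM after DNMT3a siRNA, 1408 to 1486 CPM after DNMT3b siRNA and 1889.7 to 2095 CPM after negative siRNA. Of 10 epicardial markers, 1 was higher and 3 lower after DNMT3a siRNA and 1 lower after DNMT3b siRNA, with sums of 1529 to 2077 CPM after DNMT3a siRNA, 1557 to 2188 CPM after DNMT3b siRNA and 2250.03 to 2681 CPM after negative siRNA. Smooth muscle and pericyte markers summed to 8230.1 to 9357 CPM after DNMT3a siRNA, 8345 to 9941 CPM after DNMT3b siRNA and 5863 to 8554 CPM after negative siRNA, with 0 of 10 called by edgeR, while 2 and 5 had an unadjusted p under 0.05 and DESeq2 called 1 and 2 after DNMT3a and DNMT3b siRNA. Endothelial markers summed to 150.2 to 189 CPM after DNMT3a siRNA, 220.2 to 245 CPM after DNMT3b siRNA and 149.6 to 203 CPM after negative siRNA, and 1 of 10 was called, higher after DNMT3b siRNA, and 0 after DNMT3a siRNA, where 2 had an unadjusted p under 0.05 and DESeq2 called 0. Macrophage markers summed to 7.85 to 16.4 CPM after DNMT3a siRNA, with 3 of 10 lower, 18.6 to 45.3 CPM after DNMT3b siRNA, with 0 called by edgeR or DESeq2 and 0 at an unadjusted p under 0.05, and 18.4 to 51.7 CPM after negative siRNA. Cartilage and valve markers summed to 133 to 193 CPM after DNMT3a siRNA, 206 to 223 CPM after DNMT3b siRNA and 139.8 to 194 CPM after negative siRNA, with 0 of 8 measured called by edgeR, 0 and 3 at an unadjusted p under 0.05 and 0 and 3 called by DESeq2 after DNMT3a and DNMT3b siRNA. Several of these counts rested on single libraries. The 4 fibroblast markers after DNMT3b siRNA became 0 without negative siRNA library 3 or DNMT3b siRNA library 3 and 1 without negative siRNA library 1 or DNMT3b siRNA library 2, and the 4 after DNMT3a siRNA became 2 without DNMT3a siRNA library 1. The 3 macrophage markers became 0 without negative siRNA library 3 or without all libraries numbered 2, 1 without DNMT3a siRNA library 1 and 5 without negative siRNA library 1. The 1 epicardial marker after DNMT3b siRNA was lost without negative siRNA library 1 or 3, DNMT3a siRNA library 1 or DNMT3b siRNA library 2 or 3, and the count became 4 without DNMT3b siRNA library 1 and 3 without negative siRNA library 2. The 1 endothelial marker was lost without negative siRNA library 1 or 3 or any 1 DNMT3b siRNA library, and the count was 5 without all libraries numbered 2. For smooth muscle and pericyte markers after DNMT3b siRNA, the edgeR count of 0 became 5, all higher, without negative siRNA library 2. It became 3, all higher, with no filter, with the replicate block and without all libraries numbered 2. Cardiomyocyte calls stayed at 10 to 13 after either knockdown under all 15 alternatives. With the replicate number as a block, 10 macrophage markers were lower and 2 smooth muscle and pericyte markers higher after DNMT3a siRNA. In bulk RNA, fewer cells of a type and less RNA per cell cannot be told apart, and the part of these markers in the collagen results was not tested.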

How the data were processed

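RNA was sequenced from 9 libraries in 3 siRNA groups of 3. Each library has 1 deposited count table, with whole-number counts of the authors for 43629 Ensembl mouse genes, not normalised. The submitters' processing notes name FastQC, TopHat2, HTSeq and the mm10/GRCm38 build without versions. Which annotation was counted, and with what strand setting, is not given in the sources used here, so reads of overlapping genes, such as Col4a1 and Col4a2 at their shared start, are uncertain. The library protocol describes no step that keeps strand. Summary lines (reads that were not unique, in no feature or ambiguous) made up 49.2% to 56.2% of a table and entered neither library sizes nor tests.

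The counts were tested with edgeR 4.0.16 in R 4.3.3 (quasi-likelihood F test, robust, TMM scaling, filterByExpr with a minimum count of 10 and a minimum total of 15) in 1 fit of all 9 libraries with group as the only term, which left 16561 genes, among them all 39 collagen genes kept, and 6 residual degrees of freedom. Calls used a Benjamini-Hochberg adjusted p under 0.05 over all genes tested. A standard error is the fold change divided by the square root of F. Per-length levels are CPM per kb of union exon length in GENCODE mouse release M21 on GRCm38, which also gave symbols for 42548 gene identifiers and the coordinates. Ratios of chains were compared with two-sided exact permutation tests (scipy 1.17.1). The fit was tested on simulated data. Alternatives were DESeq2 1.42.0, DESeq2 size factors, library size alone, no filter, the replicate number as a block, each library left out in turn, and all libraries numbered 2 left out. The labels do not say what the numbers mark. Same-numbered libraries of the DNMT3a siRNA and negative siRNA groups deviated together from their group means (r = 0.434, 0.513 and 0.459 across genes), which is over 0.1 in every pair, so blocked values of the collagen genes called stand beside that comparison. Those of DNMT3b siRNA and negative siRNA did not in every pair (r = 0.212, 0.101 and 0.033). The values of single genes from the pathway lists are from the fit without the block.

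Genes named with values were each collagen gene called in any comparison, the 3 with the highest per-length level in each class and up to 4 called genes of each pathway list; further collagen genes were named after their values were seen. The members and the lists were chosen with earlier results of these data known. Genes called higher in the list of basement membrane partners are not reported here.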

Additional observations from a re-analysis of the deposited data

How the results depend on the processing

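The 5 collagen genes called after DNMT3a siRNA against negative siRNA were called under all 15 alternatives. The count of collagen genes called was 5 there, and it was 9 with DESeq2, 8 with the replicate block and 5 to 7 with 1 library left out. The share of all genes called was 10.1%, and it was 13.9% with DESeq2, 14.3% with the block and 5.12% to 10.9% with 1 library left out. After DNMT3b siRNA against negative siRNA the count was 3, and it was 4 with DESeq2, 4 with the replicate block, 6 without all libraries numbered 2 and 2 to 8 with 1 library left out, the highest without negative siRNA library 2. Col4a3 and Col4a4 were called in all of these. The share of all genes called after DNMT3b siRNA was 5.64%, and it was 10.4% with DESeq2, 10.9% with the block and 7.3% without all libraries numbered 2. It was 1.71% to 10.5% with 1 library left out, the highest again without negative siRNA library 2. Between DNMT3a siRNA and DNMT3b siRNA the count was 3, and it was 5 with no filter, 9 with DESeq2 and 10 with the replicate block. It was 8 without all libraries numbered 2 and 0 to 7 with 1 library left out. The shares of all genes called were 9.55%, 5.17%, 13.7%, 15.2%, 9.19% and 3.11% to 11.6% in the same order. The count was 0 without DNMT3a siRNA library 1, where 3.19% of all genes were called, and without DNMT3b siRNA library 2, where 3.11% were called. The block changed no call of a gene named by the rule other than adding Col4a3 between DNMT3a siRNA and DNMT3b siRNA (log2 fold change -0.55, adjusted p = 0.0233, edgeR), and its numbers were not shown to pair those groups (r = 0.161, 0.078 and 0.041). The causes of these shifts were not tested. No fold change of a named collagen gene that was called changed its sign.

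Over all genes, the calls after DNMT3a siRNA against negative siRNA numbered 1671, of which 48.3% were higher, against 61.1% with library size alone. After DNMT3b siRNA they numbered 934, 62.4% higher, against 1715, 51.3% higher, with DESeq2 and 1801 with the replicate block. Between DNMT3a siRNA and DNMT3b siRNA they numbered 1582, against 2513 with the replicate block. Genes of few reads, such as Col20a1, and the 3 libraries per group limit what could be detected.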
